A study of Mus musculus with 33 samples.

Results

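Cells sorted as GFP-negative were compared with the unsorted bulk population of a mouse embryonic stem (ES) cell line whose Tdgf1 start site had been replaced with GFP. The comparison uses 6 of the 33 samples of the series, 3 bulk and 3 GFP-negative libraries, chosen by their labels. It covers all 3918 guide RNAs (gRNAs) counted in them, of which 3908 have a position on chromosome 9 and 10 target GFP itself. In both groups the cells carried a dummy guide RNA at the ROSA26 locus, here called the placeholder, before the gRNA library was electroporated. They were grown in ES cell medium with LIF, GSK-3 inhibitor XV and UO126. The bulk group was not sorted after electroporation, and the GFP-negative group was sorted by fluorescence (FACS). The other sorted group, GFP-medium, has 3 libraries, which entered the fit across single gRNAs. Otherwise only their core promoter share is set beside the other groups, in a closing section. The labels give the replicate numbers 1 to 3 in each group and do not say whether these are separate cultures, so the p-values measure the spread between samples that may be technical.

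Tdgf1 encodes Cripto, a membrane-anchored protein that acts as a co-receptor for Nodal, a TGF-beta family ligand, and it is expressed in ES cells. In a mutation screen of this kind each gRNA directs Cas9 to cut its own target, and repair of the cut leaves small insertions or deletions. The gRNA stays in the genome of the cell as a tag, so its share of the counts in a sorted population can be set against its share in bulk. The gRNAs against GFP are the positive control, because they can disrupt the reporter itself. The question of the comparison is at which positions around Tdgf1 gRNAs take a larger share among cells without GFP signal.

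The positions span chr9:110926152-110966229 (mm10, equal to GRCm38). The Tdgf1 gene lies at chr9:110939608-110946158 on the minus strand, so sequence upstream of its 5′ end has higher coordinates. The next gene, Lrrc2, a leucine-rich repeat gene, lies at chr9:110951545-110984066 on the plus strand, and the 5′ ends of the divergent pair are 5387 bp apart. The gRNAs were sorted by their midpoint into 9 classes. The core promoter class holds the 122 gRNAs within 500 bp of the Tdgf1 5′ end, the proximal upstream class the 214 gRNAs from 500 bp to 2 kb upstream, and the 5′ gene part the 120 gRNAs from 500 bp to 2 kb inside the gene. The remaining Tdgf1 body holds 477 gRNAs, the intergenic stretch upstream 253, the region within 1 kb of the Lrrc2 5′ end 204, the Lrrc2 body 1242 and the intergenic stretch downstream of Tdgf1 1276. The 10 gRNAs against GFP form the ninth class. How much of the genomic sequence GFP replaced is not stated in the labels, so some gRNAs near the 5′ end may lack a target on the reporter allele, which was not tested.

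The 250 bases just upstream of the annotated 5′ end, chr9:110946159-110946408, are shown as read on the minus strand (RefSeq, GRCm38.p6). They hold the positioned gRNA with the largest ratio of means among those above bulk in every library. Most others of large ratio lie farther upstream. The capitals mark a stretch of 21 letters, GTAATGGGCGTGGGGCCCCGT, that occurs 2 times, starting 50 and 31 bases upstream and overlapping itself.
Tdgf1 promoter: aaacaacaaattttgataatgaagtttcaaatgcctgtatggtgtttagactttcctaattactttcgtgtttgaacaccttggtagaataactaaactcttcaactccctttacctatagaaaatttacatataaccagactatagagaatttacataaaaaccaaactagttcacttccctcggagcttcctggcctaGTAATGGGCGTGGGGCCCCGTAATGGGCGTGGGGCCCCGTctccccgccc
The window of 300 bases that reaches 50 bases into the gene has a GC content of 41.7%. A search of both strands found the GC box GGGCGG once, 6 bases upstream on the opposite strand, as in 35.7% of 32851 promoter windows of the same length. The longer GC-rich element GGGCGTGG, which overlaps GGGCG but not the whole GC box, was found 2 times, starting 45 and 26 bases upstream, and 5.33% of the windows hold it. The letters TATAAA, held by 13.6% of windows, and CCAAT, held by 37.4%, were not in the window. These matches describe the letters only.

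Of the gRNAs, 35 lie whole inside this window of 300 bases. In 30 of them the NGG motif that Cas9 requires beside its target (the PAM) is on 1 strand only, so that the target could be read from the window, and in 5 both strands carry one. The targets below are written 5′ to 3′ with the PAM in capitals. The 6 shown are the 2 of known strand that were above bulk in every library, an example of 9.99-fold higher mean abundance, and 2 pairs of neighbours shifted by 1 base.
chr9:110946272-110946294: gttatatgtaaattttctatAGG
chr9:110946190-110946212: ggggccccacgcccattactAGG
chr9:110946118-110946140: acaccttaagtttcttttaaGGG
chr9:110946119-110946141: aacaccttaagtttcttttaAGG
chr9:110946206-110946228: tactaggccaggaagctccgAGG
chr9:110946207-110946229: actaggccaggaagctccgaGGG

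The bulk libraries held 107960 to 123840 gRNA counts and detected 3455 to 3635 of the 3918 gRNAs. The GFP-negative libraries held more counts, 608532 to 719247, on fewer gRNAs: 1183, 2106 and 992 in replicates 1, 2 and 3. Counts in the GFP-negative group were concentrated, since 91, 217 and 74 gRNAs made up 50% of them, against 763 to 878 in bulk. In a GFP-negative library 9.90% to 13.5% of the counts fell on its 10 top gRNAs, in a bulk library 1.299% to 1.68%. GFP-negative replicate 2 thus stands apart as the most diverse sorted library. The placeholder, left out of these totals, took 3.53% to 11.3% of all bulk counts and 0.104% to 0.370% of all GFP-negative counts. Abundances are given as CPM, the counts of a gRNA scaled to a library total of 1000000. Because shares of a library sum to 100%, a rise of some gRNAs lowers all others, and the 2 cannot be told apart.

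The gRNAs against GFP, the positive control, stood highest above bulk of the 9 classes. They held 0.202%, 0.242% and 0.186% of the bulk counts and 4.53%, 8.41% and 6.62% of the GFP-negative counts of replicates 1, 2 and 3. The groups did not overlap, and the mean was 31.0-fold higher (6.52% ± 1.94 against 0.210% ± 0.029, SD, n = 3 each). The log2 ratio within same-numbered pairs was 4.92 ± 0.38 (SD, n = 3 pairs). The exact permutation test of 3 against 3 libraries, which does not use the pairs, gave p = 0.1, its smallest possible p. Benjamini-Hochberg adjustment over the 9 classes gave 0.129.

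Of the 10 gRNAs against GFP, 9 had all 3 GFP-negative libraries above all 3 bulk libraries, where 1.51% of all 3918 gRNAs did (59 gRNAs). GFP gRNA 9 had 384, 88.8 and 102 CPM in bulk and 8679, 6550 and 9360 CPM in GFP-negative replicates 1 to 3, a 42.8-fold higher mean. GFP gRNA 4 had 535, 315 and 834 CPM in bulk and 7837, 12369 and 27395 CPM in GFP-negative cells, and was the most counted gRNA of GFP-negative replicate 3. GFP gRNA 10 went from 184, 525 and 278 CPM to 6089, 25951 and 5789 CPM and was the most counted gRNA of GFP-negative replicate 2. Each of these 3 gRNAs was high in every GFP-negative library, with a lowest value of 5789 CPM.

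The other gRNAs against GFP also differed between GFP-negative libraries. GFP gRNA 5 had 8671, 7238 and 4208 CPM there, against 318, 291 and 120 CPM in bulk. GFP gRNA 6 had 9287, 2468 and 5316 CPM against 293, 186 and 130 CPM. GFP gRNA 1 had 1567, 4460 and 9048 CPM against 159, 194 and 148 CPM. GFP gRNAs 5 and 6 were thus highest in replicate 1 and GFP gRNA 1 in replicate 3, and their means were 27.6-fold, 28.1-fold and 30.1-fold higher. GFP gRNA 3 had 889, 16341 and 1919 CPM against 66.9, 339 and 120 CPM, a mean 36.4-fold higher that rests mostly on GFP-negative replicate 2. GFP gRNA 8 had 1435, 7608 and 2488 CPM against 50.1, 226 and 111 CPM. GFP gRNA 2, the least abundant of the 10 in bulk with 33.4, 40.4 and 18.5 CPM, had 837, 321 and 184 CPM in GFP-negative cells, a 14.5-fold higher mean. All 3 lay above bulk in every library. GFP gRNA 7 was the exception: it had 0, 218 and 0 CPM in bulk and 0, 841 and 472 CPM in GFP-negative replicates, so its groups overlap.

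**Figure D1:**
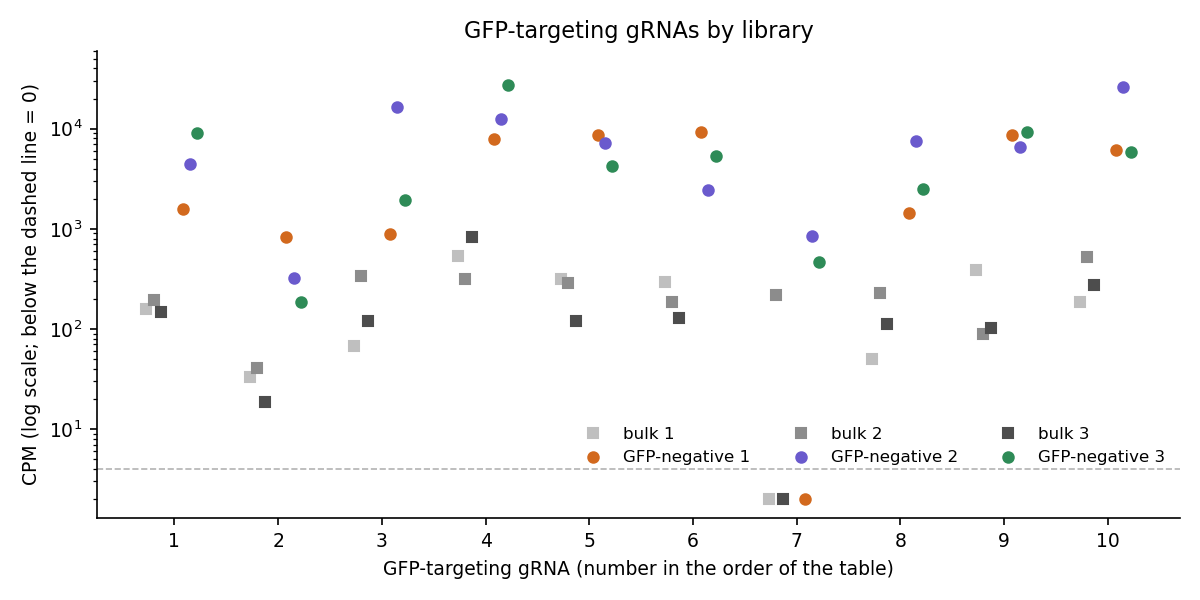
Abundance of each of the 10 gRNAs against GFP (horizontal axis, numbered by table order) in CPM on a log axis, with a value of 0 drawn at the bottom; each point is 1 library of bulk or GFP-negative cells. In 9 of the 10 gRNAs the GFP-negative points all lie above the bulk points, and in GFP gRNA 7 they overlap.

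After the control, the core promoter and the proximal upstream sequence of Tdgf1 stood highest above bulk. The core promoter class held 3.53%, 3.43% and 3.46% of bulk counts and 9.71%, 11.6% and 16.3% of GFP-negative counts in replicates 1, 2 and 3. That is 3.47% ± 0.05 against 12.5% ± 3.37 (SD, n = 3 each), a 3.61-fold higher mean with no overlap. The proximal upstream class held 6.08%, 5.99% and 5.51% in bulk and 17.8%, 17.1% and 20.8% in GFP-negative cells. Its mean was 3.17-fold higher (5.86% ± 0.31 against 18.6% ± 1.94, SD, n = 3 each), again with no overlap. Within pairs the log2 ratios were 1.46, 1.76 and 2.23 for the core promoter and 1.55, 1.51 and 1.91 for the proximal upstream class. For both classes the exact permutation test gave p = 0.1 and an adjusted p of 0.129.

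Inside the gene, beyond the core promoter, the excess over bulk was small in the 5′ gene part and gave way to a deficit farther in. The 5′ gene part held 3.67%, 3.50% and 3.73% of bulk counts and 4.43%, 4.93% and 5.15% of GFP-negative counts, a 1.33-fold higher mean without overlap (exact permutation p = 0.1, adjusted 0.129). The remaining Tdgf1 body held 12.1% ± 0.19 in bulk and 9.42%, 7.51% and 6.21% in GFP-negative replicates, 0.637 times the bulk mean. Here every GFP-negative library lay below every bulk library (exact permutation p = 0.1, adjusted 0.129). The sequence within 2 kb of the 5′ end as a whole went from 12.97% ± 0.29 of the bulk counts to 35.9% ± 5.49 of the GFP-negative counts (SD, n = 3 each), with 31.9%, 33.7% and 42.2% in the 3 GFP-negative libraries.

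Away from the promoter the large classes held a smaller share in every GFP-negative library than in bulk. The Lrrc2 body went from 33.6% ± 0.14 to 19.99% ± 2.24 (SD, n = 3 each), and the intergenic sequence downstream of Tdgf1 from 28.6% ± 0.44 to 16.2% ± 3.08, both without overlap (exact permutation p = 0.1, adjusted 0.129). The intergenic sequence between the proximal upstream class and Lrrc2 did not part the groups: 6.85%, 6.64% and 6.87% in bulk and 6.32%, 8.65% and 8.83% in GFP-negative cells, with overlap (exact permutation p = 0.4, adjusted 0.45). The region around the Lrrc2 5′ end held 5.69% ± 0.07 in bulk and 7.02%, 4.63% and 5.60% in GFP-negative cells, also with overlap (exact permutation p = 0.8). Neither of these last results shows that the shares are equal, because the GFP-negative libraries differed among themselves.

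**Figure D2:**
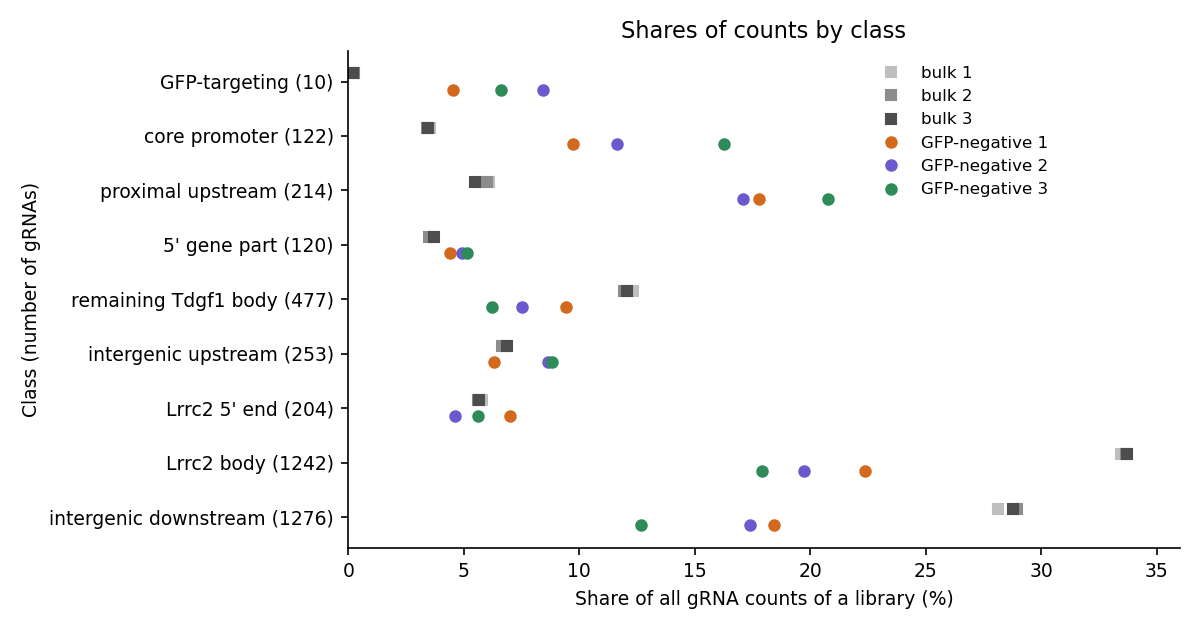
Share of the counts of a library (percent, horizontal axis) in each of the 9 classes of gRNAs (vertical axis, with the number of gRNAs); squares and circles are the 3 bulk and 3 GFP-negative libraries. The GFP-negative circles lie above bulk for the gRNAs against GFP, the core promoter, the proximal upstream class and the 5′ gene part, and below bulk for the remaining Tdgf1 body, the Lrrc2 body and the intergenic stretch downstream.

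Shares of classes were also set against each other within libraries, which a rise elsewhere cannot move. In 5 such ratios the smallest exact permutation p was 0.1, with an adjusted p of 0.125. The ratio of proximal upstream to 5′ gene part was higher in GFP-negative cells by 1.25 on the log2 scale, with 1.28, 1.02 and 1.45 in the 3 pairs. These classes cover equal lengths on the 2 sides of the core promoter, so the excess was larger on the upstream side in every pair. The ratio of core promoter to 5′ gene part was higher by 1.41, with pairs of 1.19, 1.27 and 1.77. The core promoter against the proximal upstream class moved by 0.16 with pairs of -0.09, 0.25 and 0.32, and the libraries overlapped (exact permutation p = 0.4). The ratio of the intergenic stretch upstream to that downstream was higher by 1.05, with pairs of 0.49, 1.12 and 1.55, and its ratio to the Lrrc2 body by 0.96, with pairs of 0.47, 1.15 and 1.27. The intergenic sequence facing the promoter thus stood higher relative to both distant classes in every pair.

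In tiles of 1 kb the excess formed 1 continuous stretch. Of 41 tiles, 5 (12.2%) had all GFP-negative libraries above all bulk libraries, and these 5 follow each other from chr9:110944000 to 110948999. The tile from 110946000, which holds the 5′ end, had 4.15%, 4.03% and 4.05% of bulk counts and 16.4%, 15.2% and 18.2% of GFP-negative counts, a 4.08-fold higher mean. The tile from 110947000, the next one upstream, had 3.88%, 3.73% and 3.38% in bulk and 7.37%, 10.4% and 16.3% in GFP-negative cells. The first of these was alike in all 3 replicates and the second differed more than 2 times between them, with a mean 3.10-fold higher. The outer tiles of the stretch had lower ratios of means, 1.66 for the tile from 110948000, 1.72 for 110945000 and 1.11 for 110944000. The next tile upstream, from 110949000, had 3.47%, 4.08% and 4.74% in GFP-negative cells against 3.67%, 3.26% and 3.36% in bulk and so overlapped. In 25 tiles (61.0%) every GFP-negative library was below every bulk library, and the lowest ratios, 0.258 and 0.270, were those of the tiles from 110926000 and 110964000 near the ends of the library. With 3 against 3 libraries no tile can pass, and the smallest adjusted exact permutation p was 0.137.

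**Figure D3:**
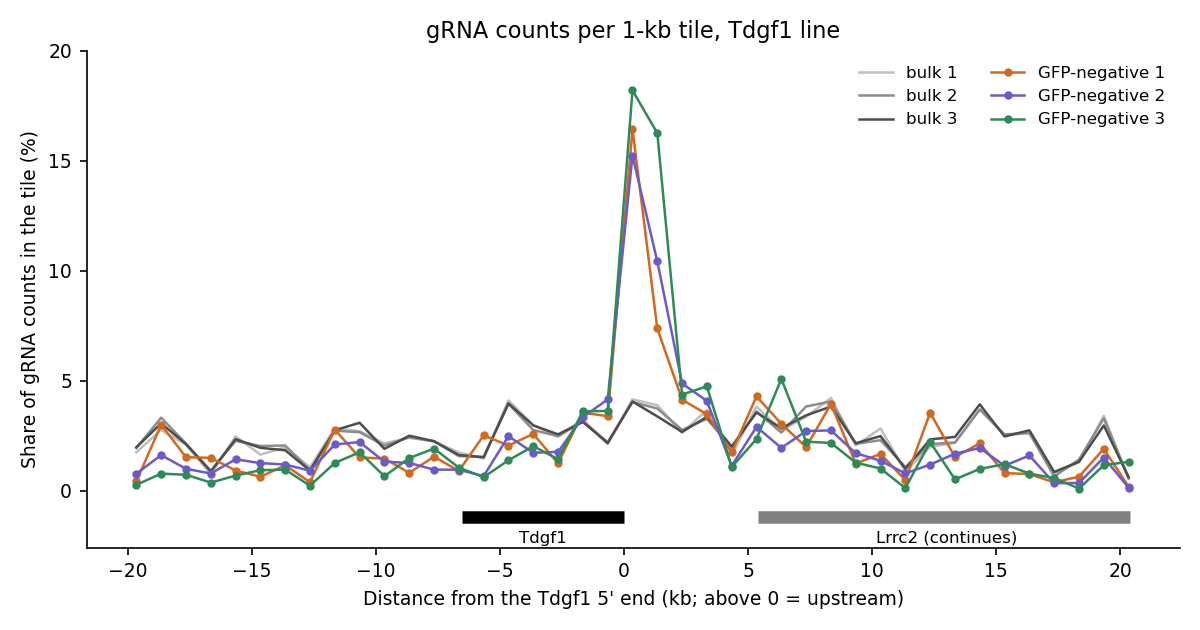
Share of the gRNA counts of a library (percent) in each 1-kb tile, against the distance of the tile from the Tdgf1 5′ end (kb, values above 0 lie upstream); each line is 1 bulk or GFP-negative library. The tile at the 5′ end reaches 15.2% to 18.2% in the GFP-negative libraries and 4.03% to 4.15% in bulk.

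At a resolution of 250 bp the excess reached farther upstream than inside the gene. Of the 24 bins within 3 kb of the 5′ end, 13 (54.2%) had all GFP-negative libraries above bulk. All 11 consecutive bins from 2250 bp upstream to 500 bp inside were among them. The bin from 500 to 250 bp upstream had the highest ratio of means, 4.68, with 3.14, 4.196 and 6.68 in the 3 pairs. The bin from 750 to 500 bp upstream followed at 4.17, with 6.09, 3.79 and 2.71 in the pairs. The pair that was highest in the first of these bins was lowest in the second, and these neighbours do not differ beyond their spread. The bin from 1250 to 1000 bp upstream reached 3.99, with pairs of 1.94, 3.78 and 6.46, and the bin from 1500 to 1250 bp reached 3.64. Between these high bins lay a lower one, from 1000 to 750 bp upstream, at 2.63, with pairs of 3.12, 2.33 and 2.45. The bins on both sides of the 5′ end had ratios of 3.92 upstream and 3.51 inside. Deeper in the gene the ratio was 1.94 from 250 to 500 bp and 1.45 from 500 to 750 bp, where the libraries overlapped. The other 2 bins above bulk in every library were those from 750 to 1000 bp, at 1.58 with pairs of 1.29, 1.58 and 1.84, and from 1250 to 1500 bp, at 1.96 with pairs of 1.16, 2.81 and 2.12. The latter holds only 7 gRNAs. From 1750 to 2000 bp the ratio was 0.878. Farther upstream it was 2.63 from 2250 to 2000 bp and 1.15 from 2500 to 2250 bp. The continuous stretch of bins above bulk thus ended at 500 bp on the gene side and at 2250 bp on the other side, with 2 separate bins above bulk deeper in the gene.

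**Figure D4:**
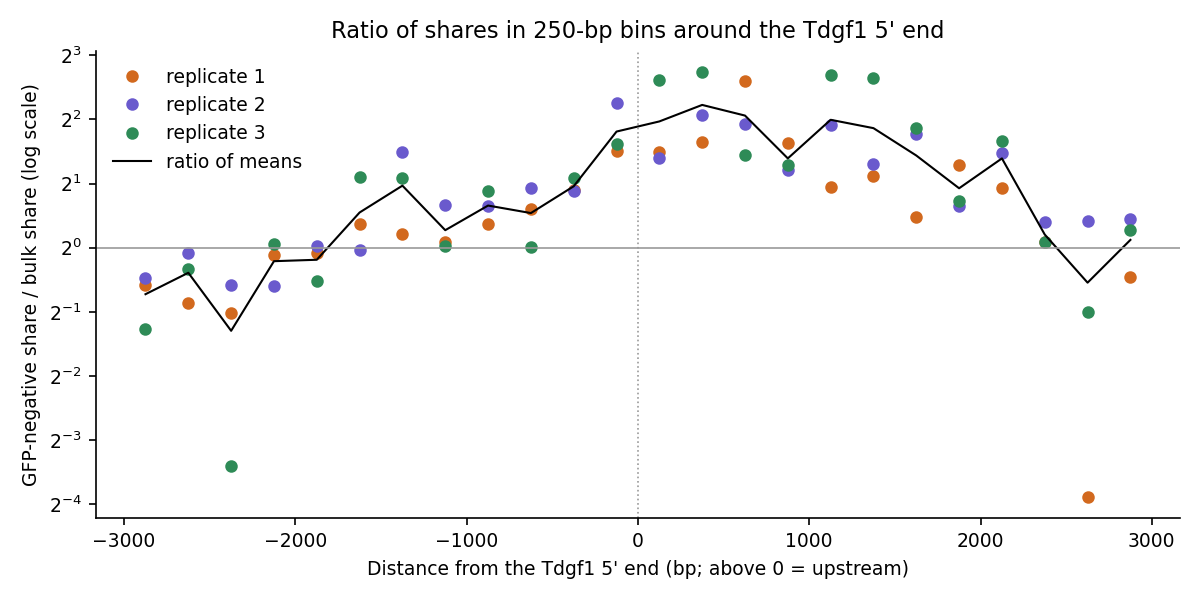
Ratio of the GFP-negative to the bulk share of counts in 250-bp bins within 3 kb of the Tdgf1 5′ end (log axis; values above 0 on the horizontal axis lie upstream); points are the 3 same-numbered pairs and the line is the ratio of means. The 11 bins from 2250 bp upstream to 500 bp inside the gene have all 3 GFP-negative libraries above bulk.

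Single gRNAs were less even than the region they lie in. Of the 59 gRNAs above bulk in every library (1.51%), 50 had a position, and 41 of these lay within 2 kb of the Tdgf1 5′ end, 34 of them upstream and 7 inside the gene. By class this was 12 of 122 in the core promoter (9.84%), 26 of 214 in the proximal upstream class (12.1%), 3 of 120 in the 5′ gene part (2.50%) and 4 of 253 in the intergenic stretch upstream (1.58%). It was 1 of 477 in the remaining Tdgf1 body, 3 of 1276 downstream, 1 of 1242 in the Lrrc2 body and 0 of 204 at the Lrrc2 5′ end. Most promoter gRNAs therefore were not above bulk in every library. The opposite pattern, all GFP-negative libraries below all bulk libraries, held for 1646 gRNAs (42.0%), for 13.9% of the core promoter, 7.94% of the proximal upstream class, 25.0% of the 5′ gene part, 44.7% of the remaining Tdgf1 body and 50.1% of the Lrrc2 body.

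Of the positioned gRNAs above bulk in every library, chr9:110946272-110946294, centred 125 bp upstream of the 5′ end, had the largest ratio of means, 12.01. It had 91.9, 493 and 704 CPM in bulk and 1634, 2226 and 11616 CPM in GFP-negative replicates 1, 2 and 3. Its target, printed above, is AT-rich, with a GC content of 15% over the 20 bases before the PAM. The gRNA chr9:110946584-110946606, 437 bp upstream, had 493, 751 and 639 CPM in bulk and 7019, 877 and 12882 CPM in GFP-negative cells, a ratio of 11.03. In both, 1 or 2 of the GFP-negative libraries carried most of the excess.

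The steadiest of the named promoter gRNAs was chr9:110946711-110946733, 564 bp upstream. It had 501, 315 and 509 CPM in bulk and 5379, 3326 and 4448 CPM in GFP-negative cells, a ratio of 9.92. It was the only positioned gRNA called higher by edgeR's quasi-likelihood test in the fit of the 6 libraries alone (log2 fold change 3.64, adjusted p = 0.0386). It was not called in those 6 libraries with the replicate number as a block, nor in the fit of all 9 Tdgf1 libraries (adjusted p = 0.511). Around it lay chr9:110946682-110946704, 535 bp upstream, with 12535, 2187 and 1040 CPM in GFP-negative cells against 380 to 602 CPM in bulk, and chr9:110946835-110946857, 688 bp upstream, with 565, 1737 and 3707 CPM against 83.6 to 347 CPM. Farther upstream were chr9:110946996-110947018 (849 bp, 1127, 963 and 3914 CPM) and chr9:110947350-110947372 (1203 bp, 2694, 1129 and 5372 CPM). Their means were 9.20-fold to 10.3-fold above bulk. In the fit of all 9 libraries edgeR's adjusted p-values of the 8 named gRNAs within 2 kb were 0.243 to 0.511, so none passed alone.

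The labels give 4 gRNAs of the Tdgf1 library whose target sites were also sequenced deeply. That sequencing is not analysed here, but their counts in the screen are. The pair named Enhancer lies upstream of the 5′ end. Of it, chr9:110947445-110947467, 1298 bp upstream, had 267, 452 and 676 CPM in bulk and 2945, 1192 and 11012 CPM in GFP-negative cells, a 10.9-fold higher mean with no overlap (edgeR adjusted p = 0.243). Its neighbour chr9:110947457-110947478 shares part of the site but was scarce: 226, 0 and 18.5 CPM in bulk and 137, 0 and 0 CPM in GFP-negative cells, with overlap. The pair named URE lies downstream of the gene, 11.7 and 11.9 kb from the 5′ end. Of it, chr9:110934270-110934292 had 192, 64.6 and 315 CPM in bulk and 0, 185 and 0 CPM in GFP-negative cells. The other, chr9:110934426-110934448, had 376, 404 and 519 CPM in bulk and 7570, 172 and 0 CPM in GFP-negative cells, so that it was high in replicate 1, below bulk in replicate 2 and without a count in replicate 3. Of the 4, 1 was above bulk in every library.

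The 9 positioned gRNAs above bulk in every library but farther than 2 kb from the 5′ end had ratios of at most 6.44. Those named within 2 kb for the largest ratios had 9.20 or more. This contrast rests on that choice, because ratios of gRNAs within 2 kb and above bulk in every library went down to 2.36. The ratios near and far thus overlap. The largest distant ratio, 6.44, was at chr9:110932085-110932107, 14.1 kb from the 5′ end beyond the 3′ end of the gene. This gRNA had 543, 541 and 102 CPM in bulk and 5299, 747 and 1597 CPM in GFP-negative cells. Next came chr9:110939617-110939638 at the 3′ end of Tdgf1, with 217, 275 and 315 CPM against 577, 1100 and 3492 CPM, a ratio of 6.41. Just outside the 2-kb limit lay chr9:110948260-110948282, 2113 bp upstream, with 242, 606 and 370 CPM in bulk and 3647, 2180 and 1707 CPM in GFP-negative cells, a ratio of 6.18. The other named ones were chr9:110938340-110938362 (ratio 4.99) and chr9:110949026-110949048 (ratio 4.49). Their adjusted p-values in edgeR's fit were 0.621 to 0.766.

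High counts in a single GFP-negative library were not limited to the promoter. The most counted gRNA of GFP-negative replicate 1, chr9:110946746-110946768, 599 bp upstream, had 22079 CPM there, 1247 CPM in replicate 2 and 0 in replicate 3. Its bulk values were 176 to 376 CPM. The second of replicate 1, chr9:110958098-110958119 in the Lrrc2 body, had 18714, 521 and 0 CPM against 241 to 560 CPM in bulk. The third, chr9:110946005-110946027, 142 bp inside Tdgf1, had 14488, 3288 and 0 CPM against 195 to 888 CPM in bulk. All 3 were without a count in replicate 3. In turn chr9:110966031-110966053 in the Lrrc2 body, the second most counted of replicate 3, had 13146 CPM there, 335 CPM in replicate 2 and 0 in replicate 1. Its bulk values were 153 to 778 CPM. Among these, a high value in 1 library alone was thus seen in the Lrrc2 body, up to 19.9 kb from the Tdgf1 5′ end. Those named near the 5′ end were above all bulk libraries in GFP-negative replicates 1 and 2.

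Many gRNAs away from the promoter had no count among GFP-negative cells. The gRNA with most bulk counts among them was chr9:110936815-110936837, downstream of Tdgf1, with 1663, 1558 and 1250 CPM in bulk and 0 counts in all 3 GFP-negative libraries. Its bulk mean was 319.7-fold above a floor of 3 counts in each GFP-negative library (edgeR adjusted p = 0.0329). The next ones were chr9:110937037-110937059 downstream of Tdgf1 and chr9:110965050-110965072 and chr9:110959789-110959811 in the Lrrc2 body. Their bulk means were 218-fold, 190.2-fold and 162-fold above that floor, with edgeR adjusted p-values of 0.0377, 0.0400 and 0.0411. The gRNA chr9:110949520-110949542, 3373 bp upstream of Tdgf1, had 702, 888 and 778 CPM in bulk and no count in GFP-negative cells. Its bulk mean was 169-fold above the floor, and it did not pass (edgeR adjusted p = 0.0599). Of these 5, 4 passed the test without the replicate number as a block, and none did with it. The 5 were chosen for having no GFP-negative count, and the folds bound counting error only. Among all gRNAs, 1331 had no GFP-negative count, while detected ones had medians of 274, 195 and 210 CPM in GFP-negative replicates 1, 2 and 3. The folds are therefore no measured depletion, and how far the zeros reflect drop-out of whole gRNAs was not tested.

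Detection was also highest near the Tdgf1 5′ end. In all 3 GFP-negative libraries 399 gRNAs had a count, and in none 1331. Of the core promoter gRNAs 52 of 122 were found in all 3 and 8 in none, and of the proximal upstream gRNAs 73 of 214 and 23. In the remaining Tdgf1 body 35 of 477 were found in all 3 and 149 in none, and in the Lrrc2 body 70 of 1242 and 457. Promoter gRNAs were thus found more often, and when found they were also more abundant: the median CPM of detected core promoter gRNAs was 542, 722 and 758 in the GFP-negative libraries against 237, 147 and 136 in the Lrrc2 body. In bulk these medians were 217 to 236 CPM in the core promoter and 209 to 250.1 CPM in the Lrrc2 body.

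A gRNA abundant in bulk is more likely to be found after sorting, so detection was compared within quartiles of bulk abundance. In the lowest quartile of bulk abundance, 29.3%, 54.9% and 20.7% of the 82 gRNAs near the 5′ end (up to 2 kb) were detected in GFP-negative replicates 1, 2 and 3, against 6.14%, 17.3% and 4.02% of the 896 gRNAs beyond 2 kb. In the highest quartile it was 79.5%, 92.4% and 75.0% of 132 gRNAs against 45.8%, 75.0% and 37.5% of 847. Within 2 kb detection was higher in each quartile and each library, and the gap between near and far gRNAs was widest, relative to the level, in the lowest quartile. That quartile starts at 0 CPM, and its median bulk abundance was 50.4 CPM up to 2 kb and 39.2 CPM beyond. It holds the 143 gRNAs without a bulk count, with 0 in the core promoter, 5 in the proximal upstream class and 1 in the 5′ gene part. Bulk abundance was thus not alike within it, and how much this widened the gap was not tested. At equal depth, after thinning every library to 107960 counts, the GFP-negative libraries detected 1057, 1959 and 907 gRNAs, close to the unthinned 1183, 2106 and 992.

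**Figure D5:**
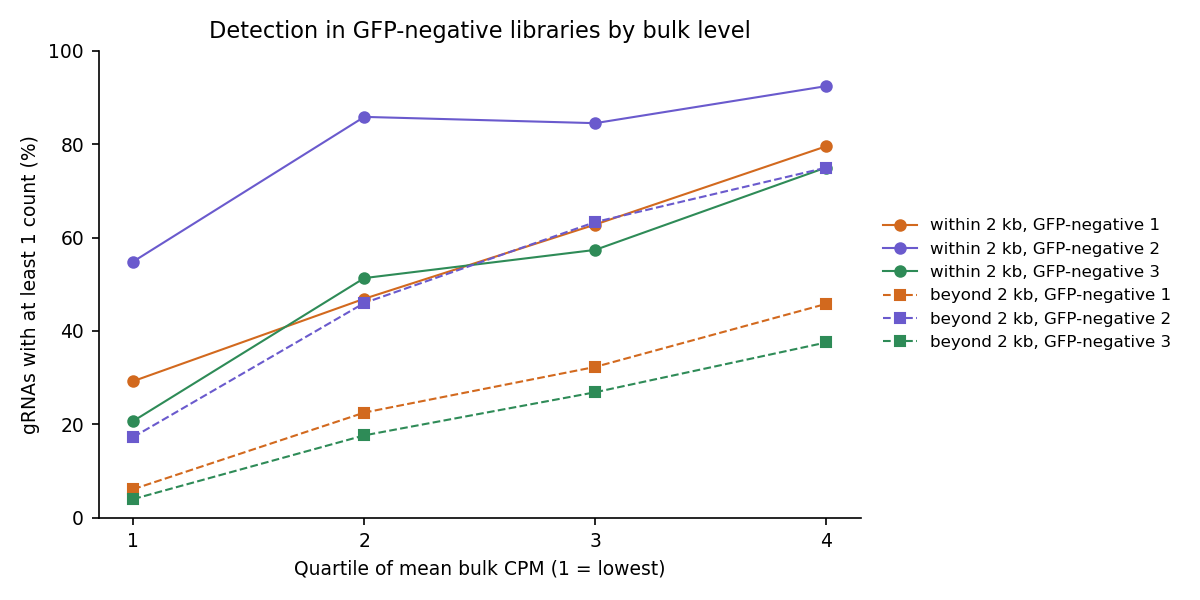
Percent of gRNAs with at least 1 count in each GFP-negative library, by quartile of bulk abundance (1 is the lowest), for gRNAs up to 2 kb from the Tdgf1 5′ end and for those farther away; each line is 1 library. Within 2 kb the values run from 20.7% to 54.9% in the lowest quartile and from 75.0% to 92.4% in the highest, above those beyond 2 kb in each library.

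Within the window of 300 bases around the 5′ end, the GFP-negative mean exceeded the bulk mean for 26 of the 35 gRNAs, while it did so for 21.4% of all gRNAs. Only 3 of the 35 were above bulk in every library, and 5 were below bulk in every library. Of the 35, 14 were found in all 3 GFP-negative libraries, 11 in 2, 9 in 1 and 1 in none. The one in none was chr9:110946207-110946229, whose target reaches the upstream edge of the repeat, with 485, 218 and 83.4 CPM in bulk. It passed in edgeR's fit without the replicate number as a block (adjusted p = 0.0234), and with the block no gRNA was called lower. Its neighbour chr9:110946206-110946228, shifted by 1 base on the same strand, had 78.2, 509 and 3117 CPM in GFP-negative cells and 159, 113 and 333 CPM in bulk, with overlap. The targets of this pair, printed above, differ only by the shift. In the second pair, inside the gene, chr9:110946118-110946140 had 2999, 2683 and 3244 CPM in GFP-negative cells against 1120, 614 and 408 CPM in bulk, a 4.17-fold higher mean without overlap. Its neighbour chr9:110946119-110946141 had 542, 2610 and 3556 CPM against 911, 646 and 797 CPM, a 2.85-fold higher mean with overlap. One of several gRNAs that overlap the repeat, chr9:110946190-110946212, had 6206, 1189 and 312 CPM in GFP-negative cells against 526, 96.9 and 148 CPM in bulk. Its mean was 9.99-fold higher, mostly through replicate 1, and its groups overlap. The gRNAs lying whole inside the repeat had lower ratios of means. These ran from 0.0593 at chr9:110946182-110946203, which was below bulk in every library, to 5.91 at chr9:110946183-110946205.

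Shifts by 1 base were common in the library. Within 2 kb of the 5′ end 115 pairs of gRNAs start 1 base apart. In 4 of these pairs both gRNAs were above bulk in every library, in 18 pairs 1 of them was, and in 93 neither was. In 9 of the 18 mixed pairs the other gRNA had no count in at least 1 GFP-negative library. Beyond 2 kb, in 763 such pairs, both were above bulk in 0 and 1 of them in 6.

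Across single gRNAs the fit of all 9 Tdgf1 libraries, in which edgeR's quasi-likelihood test covered 3172 gRNAs, called 0 higher (0%) and 705 lower (22.2%) in GFP-negative cells. At an unadjusted p under 0.05 it had 5 higher, all of them against GFP, and 886 lower. DESeq2 called 6 higher (0.189%), all against GFP, and 1012 lower (31.9%). It gave no p-value for some of the 3172 gRNAs, chr9:110946711-110946733 among them, so these could not be called. Of the 705 lower ones 639 were at 0 in all 3 GFP-negative libraries. By class the lower calls took 8 of 118 tested gRNAs in the core promoter, 5 of 187 in the proximal upstream class, 6 of 115 in the 5′ gene part and 77 of 390 in the remaining Tdgf1 body. They took 30 of 214 in the intergenic stretch upstream, 26 of 179 at the Lrrc2 5′ end, 274 of 1018 in the Lrrc2 body and 279 of 941 downstream. The median log2 fold change fitted by edgeR was 5.05 for the gRNAs against GFP, 1.66 in the core promoter and 1.497 in the proximal upstream class, beside -1.67 over all tested gRNAs. It was 0.12 in the 5′ gene part, -1.96 in the remaining Tdgf1 body, -2.56 in the Lrrc2 body and -2.77 downstream. Fitted values of gRNAs without GFP-negative counts are no measured ratios, so the median was also taken over ratios of mean CPM with those 676 gRNAs at the floor of 3 counts per library. It was then 4.86 for the gRNAs against GFP, 1.45 in the core promoter and 1.28 in the proximal upstream class, beside -1.92 over all. In the 5′ gene part it turned to -0.11.

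These calls depend on the fit. With the replicate number as a block edgeR called 0 gRNAs lower after adjustment, with 1006 at an unadjusted p under 0.05, and 0 higher. The fitted medians then turned to -0.33 in the core promoter and -0.90 in the proximal upstream class, beside -5.48 over all tested gRNAs, while those against GFP stayed at 5.03. In the fit of the 6 libraries alone it called 9 higher, GFP gRNAs 1, 3, 4, 5, 6, 8, 9 and 10 and chr9:110946711-110946733, and 723 lower. With the block in those 6 libraries it called GFP gRNAs 4, 9 and 10 higher and none lower. Leaving out bulk replicate 1 or bulk replicate 2 left 462 lower, and leaving out GFP-negative replicate 2 gave 1341 and a fitted median of -7.13 over all tested gRNAs.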

How the data were processed

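The values were raw gRNA counts per library, deposited by the authors in 1 table for the Tdgf1 line; the tables of the other lines were not used here. The build is mm10 (submitters' processing notes); the sources used here do not name the counting program. Deposited intervals count from 0: with 1 added to both ends, 79 of 79 gRNAs within the Tdgf1 and Lrrc2 promoter windows carry a PAM, against 24 as deposited, so printed positions are shifted by 1. Gene spans and promoters came from RefSeq (GRCm38.p6). The gRNAs against GFP are numbered in table order.

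Sample titles gave the groups and the replicate numbers. The placeholder was left out of totals and tests. The single-gRNA test was edgeR 4.0.16 in R 4.3.3 (filterByExpr, TMM, robust quasi-likelihood F test, 2-sided, Benjamini-Hochberg at 0.05) over 9 Tdgf1 libraries. DESeq2 1.42.0 was an alternative. The edgeR fit without the replicate block was tested on data simulated from bulk abundances. Such data lack the concentration of counts of the sorted libraries, so the simulation checks the code and not the calls. Shares of classes and tiles were compared by 2-sided exact permutation tests. A fold against a group at 0 used a floor of 3 counts per library and is a lower bound for counting error only. The labels name no molecular identifiers, so counts need not be separate cells.

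Named were all gRNAs against GFP, those chosen for deep sequencing, the 8 within 2 kb and the 5 elsewhere of largest ratio among those above bulk in every library, the 3 most counted of each GFP-negative library, the 5 with most bulk and no GFP-negative counts, and up to 10 called higher by edgeR. Examples in the promoter window and neighbouring pairs were chosen after their values were seen. Members, classes and rules were chosen with earlier results of these data known. Same-numbered bulk and GFP-negative libraries deviated together weakly (correlations of 0.168, 0.111 and 0.149 across gRNAs, against -0.119 to -0.036 for other pairs). Deviations were taken from the group mean of each gRNA, so positive values for same-numbered pairs push those of other pairs down. The latter are no independent contrast. The numbers were taken to pair the samples in the ratios within pairs and in the fits with the replicate block. The permutation tests and the main single-gRNA fit did not use the pairing.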

Additional observations from a re-analysis of the deposited data

Results flagged for a closer look

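The GFP-medium libraries entered the fit across single gRNAs, while the shares of classes and tiles did not use them. They held a high share of their counts on the core promoter. It was 24.5% ± 2.56 (SD, n = 3), with a range of 22.1% to 27.2%, while the bulk libraries held 3.47% on average and at most 3.53%. The GFP-negative libraries held 12.5% ± 3.37 (SD, n = 3).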

How the results depend on the processing

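The number of gRNAs called higher was 0 with all 9 libraries, 9 with the 6 libraries alone, 3 with those 6 and the replicate block, 6 with DESeq2 and 0 to 5 when 1 library was left out. The number called lower was 705, but 0 with the replicate block in 9 or in 6 libraries, and 462 to 1341 when 1 library was left out; the cause was not tested. Of 3918 gRNAs, 59 were above bulk in all libraries, 89 in every same-numbered pair (replicate block), and 108 to 173 with 1 replicate number left out, where fewer libraries have to separate. With tiles of 500 bp, which are more numerous, 8 were above and 47 below bulk.

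Leaving out the 10 most counted gRNAs of each library gave log2 ratios of shares of 3.59 for the gRNAs against GFP and 0.58 for the 5′ gene part. The share of detected gRNAs in place of counts gave 1.45 for the gRNAs against GFP, 0.91 for the core promoter, 0.85 for the proximal upstream class, 0.69 for the 5′ gene part, -0.016 for the remaining Tdgf1 body, -0.27 for the Lrrc2 body and -0.37 downstream, with the same signs as the counts. It was 0.29 for the intergenic stretch upstream, and 0.26 at the Lrrc2 5′ end, where the counts gave -0.005. With 1 library or pair left out the core promoter lay between 1.61 and 2.00 and the proximal upstream class between 1.53 and 1.73.

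Of the named gRNAs 6 turned direction (log2 fold change). chr9:110947457-110947478 was at 0.14 with TMMwsp scaling and ran from -7.65 without GFP-negative replicate 1 to 2.31 without bulk replicate 1. chr9:110934426-110934448 was at -0.90 in 6 libraries with the replicate block and ran from -1.92 without GFP-negative replicate 1 to 3.41 without GFP-negative replicate 3. With the replicate block chr9:110946746-110946768 was at -0.14 and chr9:110946005-110946027 at -1.205. With 1 library left out chr9:110958098-110958119 ran from -0.39 (GFP-negative replicate 1) to 4.66 (GFP-negative replicate 3), and chr9:110966031-110966053 from -0.95 (GFP-negative replicate 3) to 4.41 (bulk replicate 3). None of them was called in edgeR's fit of all libraries. In a GFP-negative library 1 count is 1.39 to 1.64 CPM, below which a gRNA is not detectable.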

Other observations

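The GFP-negative replicates shared few of their most counted gRNAs. Of the 100 most counted in each library, 10 were common to all 3 GFP-negative libraries: 5 against GFP, 5 within 2 kb of the Tdgf1 5′ end and 0 elsewhere. In bulk 12 were common to all 3. Of these 100, 43, 57 and 49 lay within 2 kb of the 5′ end in GFP-negative replicates 1, 2 and 3 and 17, 13 and 10 in bulk. Across the 3918 gRNAs, which are not independent replicates, Pearson's r of log2(CPM + 1) was 0.646 to 0.704 between bulk libraries and 0.236 to 0.339 between GFP-negative libraries. A count in GFP-negative but in no bulk library was seen for 2 gRNAs, and 141 had no count in any of the 6 libraries.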
